A study of Mus musculus with 2 samples.

Results

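Genes of the endoplasmic reticulum stress response were examined for CtBP2 occupancy in MIN6 cells, a mouse insulinoma line that stands in for pancreatic beta cells. The 5 genes were Hspa5, Xbp1, Atf4, Ddit3 and Trib3. Each was taken as a fixed window of mouse build mm9 chosen by gene and not by read count, though with earlier results of these data known. The windows were chr2:34610001-34650000 for Hspa5, chr11:5400001-5450000 for Xbp1, chr15:80070001-80110000 for Atf4, chr10:126710001-126750000 for Ddit3 and chr2:152140001-152190000 for Trib3. Together they spanned 220 kb, and 17 of the 29392 CtBP2 regions called over the whole genome overlapped them. CtBP2 regions are stretches where reads of the anti-CtBP2 chromatin immunoprecipitation (ChIP) library exceeded the count expected from input.

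When unfolded protein builds up in the endoplasmic reticulum, the chaperone encoded by Hspa5 (BiP) leaves the membrane sensors it holds inactive. The sensor IRE1 then splices the Xbp1 messenger RNA into a form that encodes an active transcription factor, and the sensor PERK slows translation while favouring that of ATF4. ATF4 raises transcription of Ddit3, which encodes the pro-apoptotic factor CHOP, and ATF4 and CHOP raise transcription of Trib3, a pseudokinase that binds AKT. Beta cells fold large amounts of proinsulin and depend on this response. CtBP2 is a co-repressor that binds NAD(H) and is brought to DNA by partner proteins.

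The series held 1 anti-CtBP2 ChIP library and 1 input library of sheared chromatin, both from MIN6 cells under regular culture conditions and fixed with 1% formaldehyde for 10 min. No stressed cells, IgG library or cells without CtBP2 were analysed here. The libraries held 34890624 ChIP and 20896067 input reads, of which 8474671 and 12471942 remained on nuclear chromosomes after 1 read per chromosome, 5 prime end and strand was kept. Those are called distinct reads. Each group was a single library, so intervals below cover counting error only and compare these libraries, not conditions. No molecular identifiers were used, and copies made by amplification cannot be told from separate molecules.

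Promoter sequences of the 5 genes are shown because a CtBP2 region lay in every window and because several of these promoters are textbook targets of the stress response. All 5 genes were matched by symbol in RefSeq, and the sequences run from 250 bases before to 50 after the annotated start on build GRCm38. They lie at chr2:34771840-34772139 (plus strand) for Hspa5, chr11:5520391-5520690 (plus) for Xbp1, chr15:80254934-80255233 (plus) for Atf4, chr10:127290543-127290842 (plus) for Ddit3 and chr2:152344011-152344310 (minus) for Trib3. These positions belong to another build than the reads, and no position was carried between builds. Whether a CtBP2 region covers a given promoter was therefore not determined. Each sequence is written 5′ to 3′ on the gene's strand, with matches to the motifs listed next in capitals.
Hspa5: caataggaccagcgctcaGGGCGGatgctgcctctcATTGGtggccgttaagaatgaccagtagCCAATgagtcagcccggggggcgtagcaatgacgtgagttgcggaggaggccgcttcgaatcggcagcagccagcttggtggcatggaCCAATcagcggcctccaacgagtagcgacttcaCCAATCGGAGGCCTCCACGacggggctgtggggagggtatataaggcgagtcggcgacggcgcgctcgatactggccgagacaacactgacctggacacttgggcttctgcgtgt
Xbp1: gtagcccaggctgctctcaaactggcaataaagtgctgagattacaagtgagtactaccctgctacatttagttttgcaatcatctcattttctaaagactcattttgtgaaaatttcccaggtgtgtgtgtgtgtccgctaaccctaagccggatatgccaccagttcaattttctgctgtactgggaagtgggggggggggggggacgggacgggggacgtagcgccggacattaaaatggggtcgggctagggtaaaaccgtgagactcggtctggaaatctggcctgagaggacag
Atf4: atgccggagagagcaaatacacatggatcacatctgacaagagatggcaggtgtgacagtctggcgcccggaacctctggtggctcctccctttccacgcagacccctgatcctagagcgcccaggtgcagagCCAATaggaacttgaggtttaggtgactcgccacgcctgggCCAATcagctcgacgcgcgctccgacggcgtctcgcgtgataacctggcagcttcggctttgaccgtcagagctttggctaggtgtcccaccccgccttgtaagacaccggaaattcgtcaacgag
Ddit3: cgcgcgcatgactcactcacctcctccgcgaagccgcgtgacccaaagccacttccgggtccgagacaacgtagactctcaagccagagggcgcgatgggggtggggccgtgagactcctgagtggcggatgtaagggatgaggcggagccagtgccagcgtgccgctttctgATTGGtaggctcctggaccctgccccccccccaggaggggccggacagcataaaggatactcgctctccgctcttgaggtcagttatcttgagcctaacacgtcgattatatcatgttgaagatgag
Trib3: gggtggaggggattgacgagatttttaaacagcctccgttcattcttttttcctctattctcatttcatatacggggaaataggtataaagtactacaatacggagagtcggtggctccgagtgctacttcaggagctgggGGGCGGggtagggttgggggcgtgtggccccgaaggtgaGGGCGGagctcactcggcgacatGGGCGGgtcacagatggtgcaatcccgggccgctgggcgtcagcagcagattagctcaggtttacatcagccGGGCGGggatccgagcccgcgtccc

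The motifs searched on both strands were the CCAAT box (CCAAT), the GC box (GGGCGG), the ER stress element (CCAAT, then 9 bases of any kind, then CCACG), its second form (ATTGG, then 1 base of any kind, then CCACG), the amino acid response elements TGATGNAAT and TTGCATCA, the cyclic AMP response element TGACGTCA and the UPR element TGACGTGG. The CCAAT box is part of the ER stress element, so those matches overlap. Only exact matches were searched, so a sequence that differs from a motif by 1 base is not listed. Hspa5 held 1 full ER stress element from -65 to -47, counted from the start, a motif found in 0.12% of 32544 distinct RefSeq promoter sequences of this length. CCAAT boxes were present in Hspa5 (4), Atf4 (2) and Ddit3 (1), against 37.4% of all promoters. GC boxes were present in Trib3 (4) and Hspa5 (1), against 35.9%. The second form of the ER stress element and the amino acid, cyclic AMP and UPR elements were not in any of the 5 windows of 300 bases, and they occur in 0.0369%, 0.956% and 0.867%, 1.8% and 0.682% of all promoters. The G and C content was 61.3% in Hspa5, 60.7% in Ddit3, 59% in Atf4, 58.3% in Trib3 and 51% in Xbp1, beside a median of 53% over all promoters. The number of CG dinucleotides was 25 in Hspa5, 22 in Ddit3, 22 in Atf4, 21 in Trib3 and 10 in Xbp1, beside a median of 7.

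CtBP2 signal in these windows was concentrated in a few narrow peaks, and at least 2 regions overlapped every window. Reads were counted in consecutive steps of 200 bp after moving their 5 prime ends 112 bp toward the fragment centre. The step with the most ChIP reads held 304 distinct reads in the Atf4 window, 230 in Ddit3, 219 in Xbp1, 213 in Trib3 and 161 in Hspa5, against a genome mean of 0.662 ChIP reads per step. The same steps held 33, 20, 18, 34 and 27 input reads, against a genome mean of 0.974. Input was thus also raised at each peak, by 34.9 times its genome mean in Trib3 and 33.9 times in Atf4, down to 18.5 times in Xbp1. A fold is given below as ChIP reads over input reads after scaling input by the ratio of distinct reads in the libraries, 0.679. Scaling on background bins, where ChIP was sparse, gave a ratio of 0.218 and folds 3.12 times as high, and both are given where they matter.

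**Figure D1:**
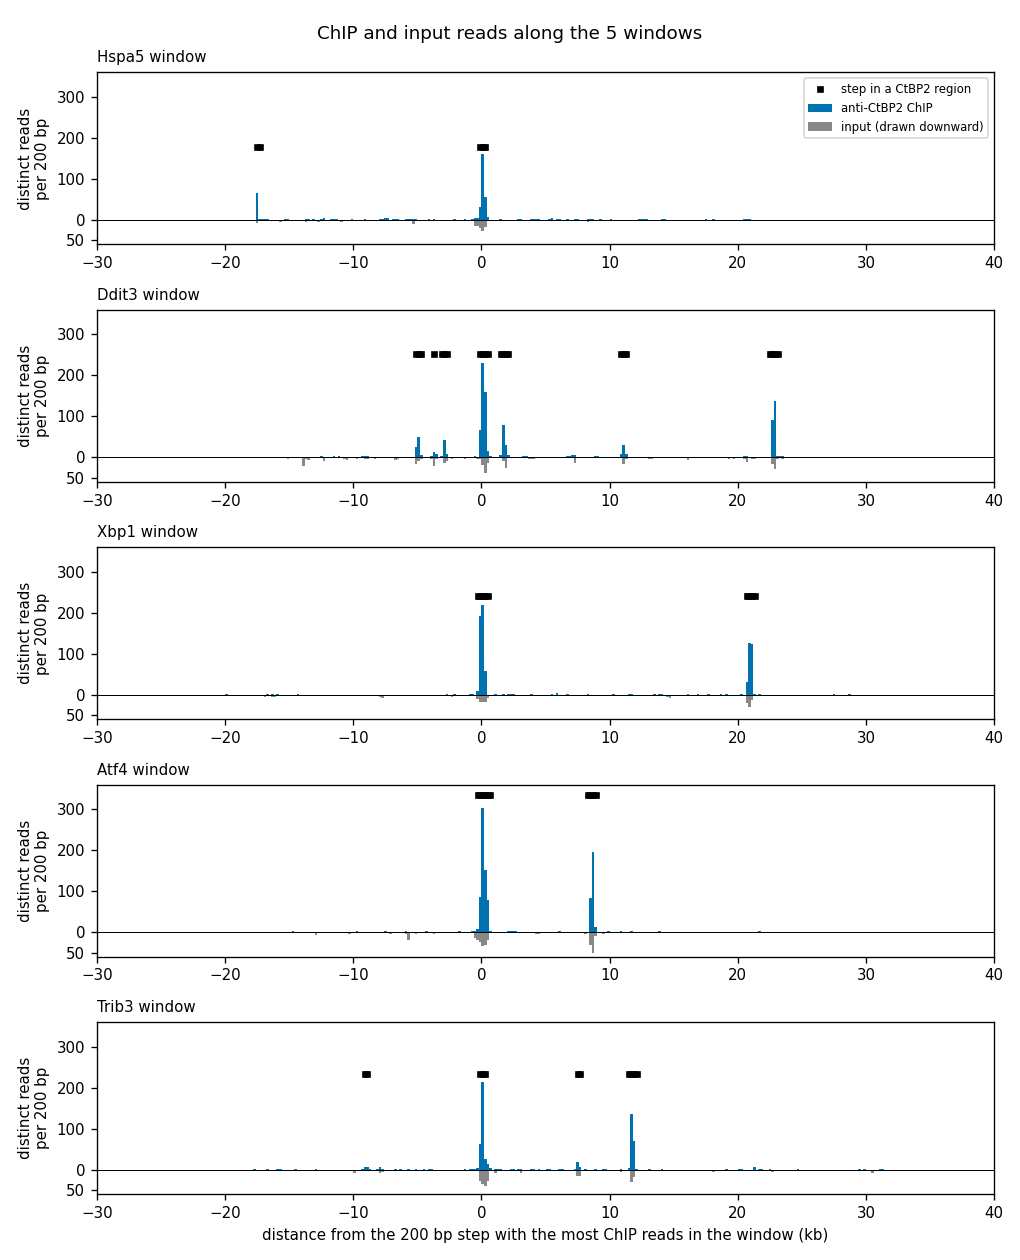
Distinct ChIP reads (blue, upward) and unscaled input reads (grey, downward) per 200 bp step along the 5 windows, by distance in kb from the step with the most ChIP reads; black squares mark steps in a CtBP2 region. The highest steps hold 161 to 304 ChIP reads, the Ddit3 window has 7 regions, and most other steps hold no ChIP read.

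Hspa5, which encodes the chief chaperone of the endoplasmic reticulum, had a single CtBP2 region wholly inside its window. It lay at chr2:34627451-34628000, was 550 bp wide, and 245 distinct ChIP reads and 62 input reads fell in it. ChIP over scaled input was 5.82 in the region (95% interval 4.39 to 7.81, exact conditional binomial here and below). Its highest step, chr2:34627601-34627800, held 161 ChIP reads (exact 95% Poisson interval 137 to 188) and 27 input reads (17.8 to 39.3), a fold of 8.78 (5.81 to 13.7). Reads fell off steeply, to 32 ChIP reads in the step before and 55 in the step after. The highest input step of the window was the same step.

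The other region of the Hspa5 window crossed its left edge. It ran from 34609251 to 34610250 of chromosome 2, and only 250 of its 1000 bp lay inside. As a whole it held 564 ChIP and 90 input reads, with ChIP over scaled input of 9.22 (7.37 to 11.7). It was thus wider and denser than the region inside. In RefSeq's gene order on GRCm38, Hspa5 lies between Gapvd1, on the minus strand, and Rabepk, also on the minus strand. A region is assigned here to its window and not to a gene.

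Xbp1 encodes the transcription factor activated by IRE1 splicing, and its first region had the highest ChIP over scaled input of the 17 regions. Its first region, at chr11:5420651-5421450, was 800 bp wide and held 480 ChIP and 65 input reads, a ratio of 10.9 (8.37 to 14.3). The step chr11:5421001-5421200 held 219 ChIP reads (191 to 250) and 18 input reads (10.7 to 28.4), a fold of 17.9 (11.1 to 30.8). The step before it held nearly as many, 193 ChIP reads with 17 input reads, so the peak was spread over both. With steps of 500 bp the fold was 9.98, and with steps offset by 100 bp it was 26.9 (15.5 to 51.4).

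A further region of the Xbp1 window lay at chr11:5441601-5442300, with its densest point 21050 bp from that of the first. It held 283 ChIP and 70 input reads, a ratio of 5.95 (4.57 to 7.84), and its interval did not overlap that of the first region. The highest input step of the window, with 31 reads, was in this region and not at the ChIP peak. In RefSeq's order Xbp1 lies between Znrf3 and Ccdc117. Between and beyond the regions the window was nearly empty of ChIP reads: 83.2% of its 250 steps held none, the highest share of the 5 windows.

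Atf4 encodes the transcription factor of the PERK arm, and its window held the step with the most ChIP reads. The region at chr15:80085751-80086650 was 900 bp wide, and 626 distinct ChIP reads and 114 input reads fell in it, a ratio of 8.08 (6.61 to 9.96). Its step chr15:80086001-80086200 held 304 ChIP reads (271 to 340) and 33 input reads (22.7 to 46.3), a fold of 13.6 (9.45 to 20.1). All 4 steps of the region with at least 10 ChIP reads passed 3 times scaled input, with 87, 304, 151 and 78 ChIP reads in order. Over the genome, 440 steps held as many ChIP reads as this step or more, out of 6709847 steps with a read in either library.

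The other Atf4 region, at chr15:80094351-80094950, held 292 ChIP and 91 input reads, a ratio of 4.72 (3.72 to 6.04). Its highest step held 197 ChIP reads but also 50 input reads, the most input of any step in the 5 windows, and its fold was 5.8 (4.23 to 8.08). The regions of this window therefore differed in ratio beyond counting error, with the first higher. RefSeq's order places Atf4 between Mief1, on the plus strand, and Rps19bp1, on the minus strand.

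Ddit3 encodes CHOP, a target of ATF4, and its window held the most regions, 7 within 40 kb. The region with the most ChIP reads and the highest ratio, at chr10:126725601-126726350, held 472 ChIP and 78 input reads, a ratio of 8.91 (7 to 11.5). Its step chr10:126725801-126726000 held 230 ChIP reads (201 to 262) and 20 input reads (12.2 to 30.9), a fold of 16.9 (10.7 to 28.2). The next step held 160 ChIP but 39 input reads, the most input in the window, and its fold was 6.04 (4.23 to 8.8). ChIP was thus highest 200 bp away from the input maximum.

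Close to that region, with densest points 1600 bp apart, lay the region chr10:126727301-126727850, which held 113 ChIP and 37 input reads, a ratio of 4.5 (3.08 to 6.7). In RefSeq's order on GRCm38, Ddit3 on the plus strand follows Mbd6 on the minus strand, so that these genes point away from each other. Mars1, on the minus strand, follows Ddit3. Which of the regions lies at which of these starts was not determined, so the highest step of the window is not assigned to Ddit3. The last region, at chr10:126748351-126748900, held 231 ChIP and 48 input reads, a ratio of 7.08 (5.17 to 9.88). Its largest fold over the expected count of the call was 28.7, above the 20.2 of the region with the most ChIP reads.

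The remaining 4 regions of the Ddit3 window were weaker. That at chr10:126720601-126721100 held 78 ChIP and 26 input reads (ratio 4.42, 2.8 to 7.17), and that at chr10:126722701-126723150 held 49 and 23 (3.14, 1.87 to 5.39). The region at chr10:126736651-126737150 held 45 and 21 (3.15, 1.84 to 5.57). In the region chr10:126722001-126722200, ChIP and input were indistinguishable with scaling by totals: 14 ChIP and 21 input reads gave a ratio of 0.981 (0.462 to 2.02). With background-bin scaling the same reads gave 3.06 (1.44 to 6.3), above 1. The region passed the call because the expected count, 3.94, was taken over 1 kb or more, where input was sparser than in the 200 bp itself.

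Trib3 encodes a pseudokinase induced downstream of ATF4 and CHOP, and its window held 4 regions of very different size. The region at chr2:152157801-152158350 held 297 ChIP and 89 input reads, a ratio of 4.91 (3.86 to 6.3). Its step chr2:152158001-152158200 held 213 ChIP reads (185 to 244) and 34 input reads (23.5 to 47.5), a fold of 9.22 (6.4 to 13.7). In the next step ChIP dropped to 26 reads while input rose to 41, the most in the window, and the fold there was 0.933 (0.548 to 1.56). ChIP and input peaks were therefore displaced from each other, and the fold at the Trib3 maximum depended on where steps began. It was 5.89 with steps offset by 100 bp, 5.52 with 5 prime ends not moved and 3.75 with steps of 500 bp.

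The region at chr2:152169451-152170050 of the Trib3 window held 207 ChIP and 51 input reads, a ratio of 5.97 (4.38 to 8.28). Its interval overlapped that of the region with more reads. The remaining regions were small: 26 ChIP and 26 input reads at chr2:152165401-152165700, a ratio of 1.47 (0.821 to 2.64), and 13 ChIP and 7 input reads at chr2:152148851-152149150, a ratio of 2.73 (1.01 to 8.09). Background-bin scaling gave 4.59 (2.56 to 8.22) and 8.52 (3.16 to 25.2) for them. RefSeq's order places Trib3, on the minus strand, between Rbck1 and Nrsn2, both also on the minus strand.

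**Figure D2:**
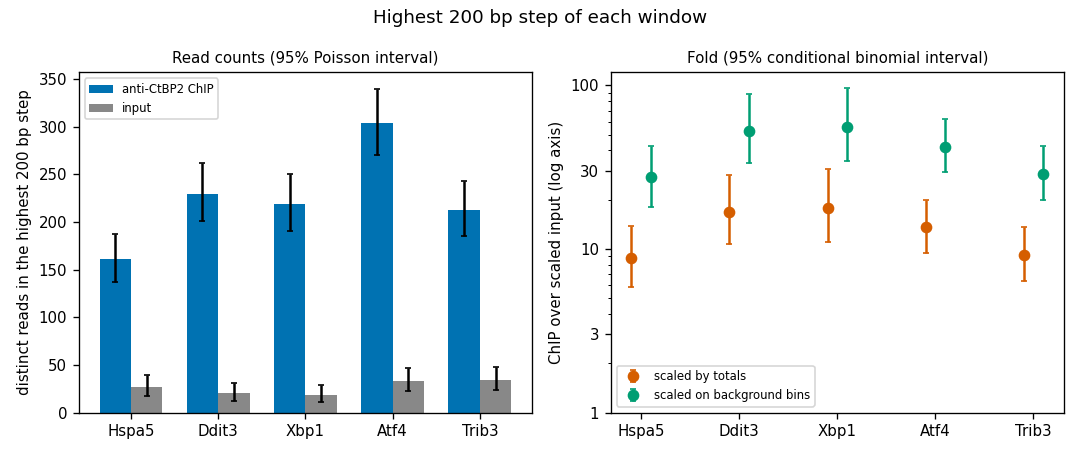
Left, distinct ChIP (blue) and input (grey) reads in the highest 200 bp step of each window, with exact 95% Poisson intervals. Right, on a log axis, ChIP over input scaled by totals (orange) or on background bins (green) with 95% conditional binomial intervals: Xbp1 is highest at 17.9 and 55.8 and Hspa5 lowest at 8.78 and 27.4 with these steps, and with each scaling all 5 intervals overlap.

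Ordered by ChIP reads in the highest step, Atf4 stood above the other 4 windows beyond counting error, since its interval (271 to 340) did not reach the next (201 to 262, Ddit3). Ddit3, Xbp1 and Trib3 were not separated from each other by their intervals. These ChIP counts are not scaled by input, and the intervals do not allow for each step being picked as the highest of its window. The interval of Hspa5 (137 to 188) met that of Trib3 (185 to 244) and lay below those of Xbp1, Ddit3 and Atf4. This rank holds only for steps inside the Hspa5 window. In the region cut by its left edge, the 200 bp with the most ChIP reads, chr2:34609851-34610050, held 223 and crossed that edge. Those 200 bp were placed in steps of 50 bp, unlike the steps compared here. By fold over scaled input the order changed to Xbp1, Ddit3, Atf4, Trib3 and Hspa5, at 17.9, 16.9, 13.6, 9.22 and 8.78, and neighbours in that order had overlapping intervals. Background-bin scaling gave 55.8, 52.8, 42.3, 28.7 and 27.4, the same order by construction. The order did not hold in other settings. With steps of 500 bp the folds were 15.1 in Ddit3, 9.98 in Xbp1, 9.52 in Atf4, 6.25 in Hspa5 and 3.75 in Trib3. Trib3 was also below Hspa5 with steps offset by 100 bp (5.89 and 6.62) and with 5 prime ends not moved (5.52 and 10.8).

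Over whole windows the contrast was smaller, since most of each window held little ChIP signal. ChIP share over input share was 3.51 in the Atf4 window (3.12 to 3.94, from 991 ChIP and 416 input reads), 3.14 in Xbp1 (2.78 to 3.56, 818 and 383) and 3.12 in Ddit3 (2.81 to 3.48, 1102 and 519). It was 2.07 in Trib3 (1.83 to 2.33, 656 and 467) and 1.99 in Hspa5 (1.72 to 2.31, 426 and 315). With these window limits, Atf4, Xbp1 and Ddit3 lay above Trib3 and Hspa5 without overlap of intervals. The Hspa5 value depends on where its window starts, because the left edge cuts a CtBP2 region. That region held 564 ChIP and 90 input reads as a whole, and only 250 of its 1000 bp were counted. The window ratio with the whole region was not computed. Windows differ in length, being 50 kb for Xbp1 and Trib3 and 40 kb for the others.

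Outside regions, ChIP was below input scaled by totals in every window. With background-bin scaling it was above input except in Xbp1, where the ratio was 1.04 (0.763 to 1.4). Steps in regions, which were called for high ChIP, are set aside here, and that lowers the ratios of the rest. Steps outside regions held 2.82 ChIP reads per kb in the Hspa5 window, 2.47 in Ddit3, 2.22 in Trib3, 1.74 in Atf4 and 1.14 in Xbp1, beside 1.2 outside regions genome-wide. Input in the same steps ran from 5.02 reads per kb in Xbp1 to 7.25 in Ddit3, beside 4.41 genome-wide. ChIP over scaled input was 0.677 (0.535 to 0.852) in Hspa5, 0.569 (0.451 to 0.715) in Trib3, 0.502 (0.389 to 0.642) in Ddit3, 0.496 (0.369 to 0.658) in Atf4 and 0.335 (0.245 to 0.45) in Xbp1. With background-bin scaling the ratio was 2.11 (1.67 to 2.66) in Hspa5, 1.77 in Trib3, 1.56 in Ddit3, 1.54 in Atf4 and 1.04 (0.763 to 1.4) in Xbp1. Steps in regions held 93.3% of the ChIP reads of the Xbp1 window, 93.3% in Atf4, 92% in Ddit3, 83.8% in Trib3 and 74.2% in Hspa5. The shares of input reads in those steps were 36.8%, 52.9%, 50.3%, 41.3% and 24.1%.

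Steps with strong signal were more frequent in these windows than over the genome, against which gene windows are not a matched background. A step was counted when it held at least 10 ChIP reads and at least 3 times its scaled input, and 0.862% of all steps with a read passed. In the 5 windows 26 of 698 steps with a read (3.72%) passed: 8 in Ddit3, 6 in Atf4, 5 in Xbp1, 4 in Trib3 and 3 in Hspa5. With background-bin scaling, 35 steps (5.01%) passed, against 1.18% of the genome. Steps overlapping a region numbered 57 (8.17%), against 1.67%. Of the 37 steps with at least 10 ChIP reads, 11 did not pass with scaling by totals, because input was high in the same step.

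Regions of these windows ranged from the sparse to the dense end of all CtBP2 regions. ChIP density was above the genome-wide median of 107.5 distinct reads per kb in 13 of 17, and input density was above its median of 52.5 reads per kb in 13 of 17. The densest, by ChIP reads per kb, was the first Atf4 region, at 696 reads per kb, denser than 96.3% of all regions. The main Ddit3 region (629 reads per kb, 92.5%) and the first Xbp1 region (600 reads per kb, 90.4%) followed. The region cut by the left edge of the Hspa5 window, taken as a whole, came next (564 reads per kb, 87.8%). The main region of Trib3 (540 reads per kb) and the region wholly inside the Hspa5 window (446 reads per kb) were denser than 86.1% and 79.7%. The sparsest was the small Trib3 region of 300 bp at 43.3 reads per kb, denser than 8.73%.

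**Figure D3:**
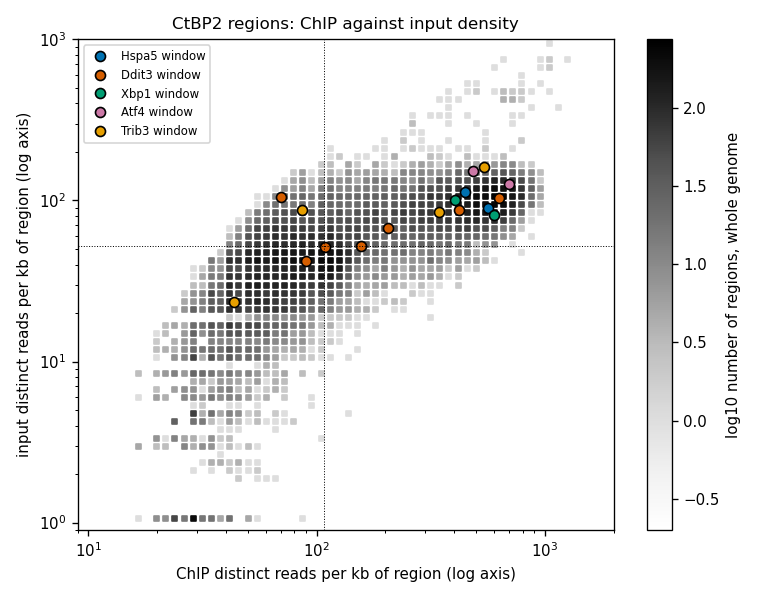
ChIP against input density of CtBP2 regions, in distinct reads per kb on log axes. Grey squares give the number of regions over the whole genome (4 with denser input lie outside the plot, and those with no input read are drawn at 1), dotted lines their medians of 107.5 and 52.5, and coloured points the 17 regions of the 5 windows, of which 13 lie above the ChIP median.

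By ChIP over input within the region, the order was again different. The first Xbp1 region exceeded 94.6% of all regions, the region at the left edge of the Hspa5 window 88.5%, the main Ddit3 region 87.1% and the first Atf4 region 81.7%, whereas the region wholly inside the Hspa5 window and the main Trib3 region exceeded 67.5% and 60.2%. Input density differed among these regions: the main Trib3 region had denser input than 99.4% of all regions, the Atf4 regions than 95.5% and 99%, and the first Xbp1 region than 70.1%. The median ratio over all regions was 4.09, and 12 of the 17 were above it. The 0.981 of the small Ddit3 region exceeded only 0.26% of regions.

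**Figure D4:**
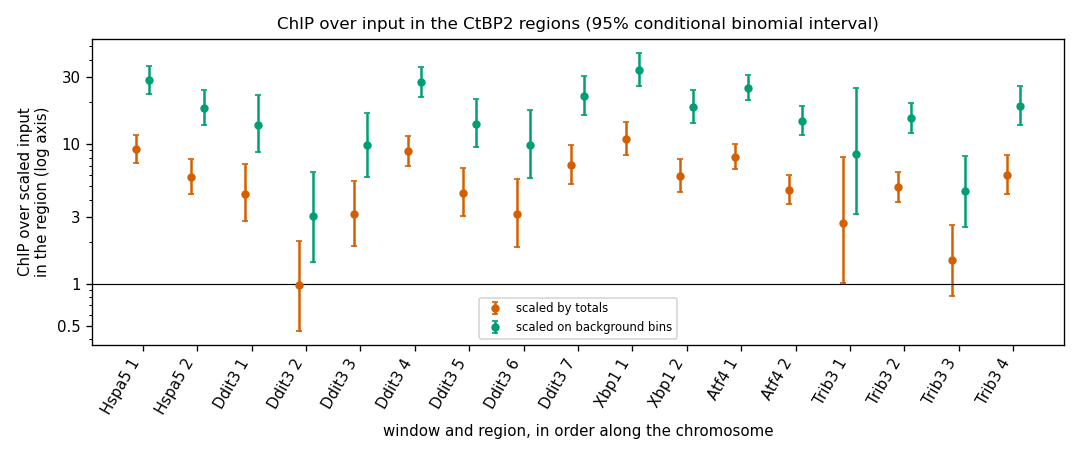
ChIP over scaled input in each of the 17 regions on a log axis, with 95% conditional binomial intervals, scaled by totals (orange) or on background bins (green). With totals, the intervals of Ddit3 region 2 and Trib3 region 3 include 1, and Xbp1 region 1 is highest at 10.9.

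How windows of dense input are treated decided how many regions were called. When 200 bp windows where input reached 10 times its genome mean were left out, 10 regions were called in place of 17: 6 in the Ddit3 window, 2 in Trib3, 1 in Atf4, 1 in Hspa5 and 0 in Xbp1. The count also fell over the whole genome, to 20426 regions in place of 29392. Both Xbp1 regions, the main Trib3 region, the region wholly inside the Hspa5 window and the second Atf4 region had no counterpart. The same was true of the small regions chr10:126722001-126722200 in the Ddit3 window and chr2:152165401-152165700 in the Trib3 window. All 10 overlapped one of the 17, but only the small Trib3 region of 300 bp had the same limits, and 8 of the 10 no longer held the summit window of the region they overlapped. The main Ddit3 region shrank to chr10:126725601-126725850, whose summit window held 120 ChIP reads in place of 230. The first Atf4 region shrank to chr15:80086451-80086650, with 37 reads in place of 304.

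Plus-strand and minus-strand 5 prime ends were displaced from each other at the highest peak of each window, in ChIP and in input alike. Within 700 bp on each side of the densest point, and without moving reads, the median minus-strand end lay beyond the median plus-strand end by 275 bp in Hspa5, 275 bp in Atf4, 250 bp in Xbp1, 250 bp in Trib3 and 225 bp in Ddit3 in the ChIP library. In input the displacement was 162.5, 225, 212.5, 275 and 300 bp. These medians are from bins of 25 bp, and those of input rest on 35 to 70 reads per strand. In Atf4 the plus-strand ChIP profile fell to 6 reads in the bin centred 187 bp past the densest point and rose again to 16 at 262 bp.

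**Figure D5:**
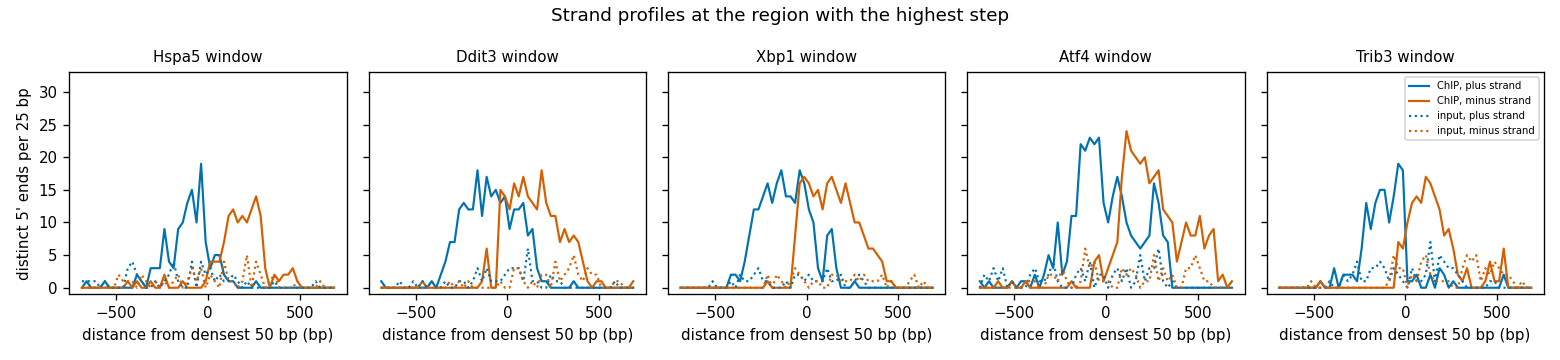
Distinct 5 prime ends per 25 bp on the plus (blue) and minus (orange) strands around the densest 50 bp of the region that holds the highest step of each window, for ChIP (solid) and input (dotted), by distance in bp. In all 5 panels the ChIP plus-strand ends lie to the left of the minus-strand ends, with median displacements of 225 to 275 bp.

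Keeping 1 read per position limits counts at these peaks, because a step of 200 bp offers only 400 positions. The highest Atf4 step filled 76% of them in ChIP, followed by Ddit3 (57.5%), Xbp1 (54.8%), Trib3 (53.3%) and Hspa5 (40.3%). Input filled 4.5% to 8.5% of them. With all deposited reads these steps held 1272, 691, 675, 603 and 408 ChIP reads, and 44, 31, 25, 36 and 31 input reads. Input was here scaled by the ratio of all deposited nuclear reads in the libraries, 1.675. The fold was then 17.3 (12.8 to 23.9) in Atf4, 16.1 (10.8 to 25.1) in Xbp1, 13.3 (9.29 to 19.8) in Ddit3, 10.0 (7.14 to 14.4) in Trib3 and 7.86 (5.45 to 11.7) in Hspa5. Atf4 moved from the third to the first place by fold, within overlapping intervals, and all 5 values stayed inside the intervals found with distinct reads. Repeated reads, which may be amplification copies, are counted in these values. The intervals with all deposited reads treat each of them as a separate count and may therefore be too narrow.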

How the data were processed

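The authors deposited aligned reads with their positions and strands; they deposited a name column that is 1 on every line, used here as a read count, and the other deposited unit is position in bp. The submitters' processing notes name BWA, SAMtools 0.1.19, bedtools 2.17.0 and build mm9; settings and mapping filters are not given in the sources used here. Reads spanned 33 to 38 bp.

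The windows, motifs and tests were chosen with earlier results of these data known. Distinct reads on 21 nuclear chromosomes were moved by 0.5 of the ChIP fragment length (225 bp, by strand cross-correlation). Regions were called in 200 bp windows, in steps of 50 bp, over 26838549 windows with a read. The expected count was the genome mean or, if larger, scaled input over 1, 5 or 10 kb. A Poisson test with Benjamini-Hochberg adjusted p up to 0.01 and a fold of 3 or more defined calls, which were joined within 200 bp. Background bins of 10 kb had input reads and no more ChIP than the median bin, which lowers their ratio. The text names all 5 genes, each region and the highest step. No mm9 annotation was used, and other pathway genes were not analysed here. Scripts used Python 3.11.15, NumPy 2.4.6, SciPy 1.17.1 and matplotlib 3.10.9.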

Additional observations from a re-analysis of the deposited data

How the results depend on the processing

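No paired analysis was possible because there was 1 library on each side. Background-bin scaling raised the highest-step fold to 27.4 in Hspa5, 52.8 in Ddit3, 55.8 in Xbp1, 42.3 in Atf4 and 28.7 in Trib3, and the whole-window ratio to 6.2, 9.74, 9.8, 10.9 and 6.44, as follows from its ratio of 0.218. With all deposited reads the whole-window ratio left its counting interval in Hspa5 (1.48), Ddit3 (2.52) and Trib3 (1.66). The Xbp1 highest-step fold was 9.98 with 500 bp steps and 26.9 with offset steps, and that of Trib3 was 5.52 with 5 prime ends not moved, 5.89 with offset steps and 3.75 with 500 bp steps. Leaving out windows of dense input gave 10 regions in place of 17, beside 20426 in place of 29392 over the genome. The other 6 settings for regions gave 15 to 22, beside 24938 to 34930 over the genome. Of these settings, counting only regions wholly inside a window was added after the data were seen. Without moving 5 prime ends, 45 steps passed in place of 26, and the other 4 settings gave 21 to 35. The share of all genome steps that passed was computed only for the main rule (0.862%) and background-bin scaling (1.18%). Counts in the remaining settings therefore cannot be compared with the genome. Where 5 prime ends are not moved, each peak is counted as separate plus-strand and minus-strand parts.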

Other observations

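Background-bin scaling added 5 weak regions to the 17, each with 6 to 8 ChIP reads in its summit window. They lay at chr2:34620101-34620300 in the Hspa5 window, at chr10:126732851-126733200 and chr10:126746351-126746550 in the Ddit3 window, and at chr2:152149901-152150250 and chr2:152179101-152179400 in the Trib3 window. The Xbp1 and Atf4 windows gained 0. Over the genome, background-bin scaling gave 34930 regions in place of 29392.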
